A study of Mus musculus with 42 samples.

Results

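The colony-stimulating factors are secreted proteins that control how myeloid cells are produced, survive and become active, and each acts through its own receptor on those cells. The 7 genes described here encode 3 of these ligands and the chains of their receptors, and they were found by symbol among the 47729 genes of the deposited table. Csf3 encodes granulocyte colony-stimulating factor, which drives neutrophil production, and Csf3r its receptor. Csf1 encodes macrophage colony-stimulating factor, on which most tissue macrophages depend, and Csf1r its receptor tyrosine kinase, which also binds the product of Il34. Csf2 encodes granulocyte-macrophage colony-stimulating factor, Csf2ra the chain that binds it, and Csf2rb the signalling chain shared with the receptors for interleukins 3 and 5. In tumours these pathways are known for supplying and shaping neutrophils and macrophages.

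The tissue was subcutaneous tumours of Pan02 cells (PanO2 in the sample titles), which come from a mouse pancreatic ductal tumour, in wild-type C57BL/6 mice, 42 tumours in 14 groups of 3 animals. The treated mice received 20 ug of BXCL701, an oral inhibitor of dipeptidyl peptidases, once a day, and the controls received vehicle (PBS). Harvests fell on days 1, 7 and 14, with vehicle mice sampled only at 0 h. Treated mice were sampled at 1, 8 and 16 h of each day, and also at 0 h from day 7 onward. No vehicle tumour was analysed at 1, 8 or 16 h, so treatment and harvest hour cannot be told apart at those hours, and the age of the mice is not given in the sources used here. Each library came from a separate animal.

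The values are those of a deposited gene table in estimated reads per gene, scaled per library by the authors in a way not given in the sources used here, so the read depth is unknown; the values of a library summed to between 19133149 and 26633378. Differences are on the log2(value + 1) scale, with standard errors from 1 limma model over all 42 libraries, and a gene counted as past the threshold where its Benjamini-Hochberg adjusted p over the 16613 genes tested was below 0.05. A gene was tested where its value reached 10 in at least 3 libraries, which 6 of the 7 members did; Csf2 did not and was not tested. The members were selected on earlier results of these data, in which Csf3r was higher on day 14 and at 0 h, and Csf3 at 8 h. Those contrasts are therefore given as descriptions without a p, nothing is read from whether a member passed the threshold in them, and adjusted p-values are given only for the others. The share of all genes whose groups did not overlap was not counted, so nothing is read from groups that lie wholly above or below others. Epithelial genes of a carcinoma were present in all libraries, with a median value of 19797 for Krt8 and 2612 for Msln, while the adhesion gene Epcam was low, with a median of 38.5 and a range of 1.67 to 269. In bulk tumour RNA, fewer cells of a type and less RNA per cell cannot be told apart.

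Of the 3 vehicle tumours of day 14, replicate 2 had the lowest value in the series for Csf3r, Csf1, Csf1r, Csf2ra and Csf2rb. The 3 tumours, in replicate order, summed, over lists of cell type marker genes, to 3433, 2212 and 3356 for the neutrophil list, 53281, 53635 and 79948 for the macrophage list, 459, 308 and 1004 for the T and NK cell list and 1207, 1734 and 31131 for the keratinocyte list. By these sums, replicate 3 was the richest of them in macrophage, T and NK cell and skin genes. Replicate 2 had the lowest sums for the neutrophil and the T and NK cell lists. The mean log2(value + 1) of the neutrophil list gave another order, at 5.12, 5.24 and 5.07, with replicate 2 the highest. Differences or counts without replicate 2 or replicate 3 are given with the results of the members that they change, and the part of these marker levels was not tested.

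In the genome (GRCm38, GENCODE M21) the ligands Csf3 (chr11:98701263-98703629, + strand) and Csf2 (chr11:54247271-54249667, - strand) lie on the same chromosome, Csf2 being 15635 bp from the interleukin 3 gene Il3. Csf1 lies at chr3:107741048-107760469 on the - strand. The receptor genes Csf3r (chr4:126024550-126044440, + strand), Csf2ra (chr19:61223957-61228429, - strand) and Csf2rb (chr15:78325752-78353847, + strand) are spread over 3 chromosomes. Csf2rb has a neighbouring near-copy, Csf2rb2 (chr15:78282507-78305721, - strand), which encodes a beta chain used by interleukin 3 in mice. The genes are 20030 bp apart, and their longest coding transcripts were 91% identical over 4622 aligned bases with an identical run of 242 bases, so reads may have been divided between them and their separate values are uncertain.

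The start regions of some receptor genes are shown as background, and whether they bear on the levels in these tumours was not tested. The sequences are RefSeq's, on GRCm38.p6 and the strand of the gene, and 5 genes (4 members and Csf2rb2) had an entry that could be shown: Csf3r, Csf1, Csf2, Csf2ra and Csf2rb2. The capitals mark the letters GAGGAA or their reverse complement TTCCTC, the core bound by PU.1, a transcription factor of myeloid cells. The windows are the 250 bases before the RefSeq start, except that for Csf3r only 30 bases around the match are given.
Csf3r, chr4:126024561-126024590: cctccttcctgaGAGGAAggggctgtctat
Csf2ra, chr19:61228419-61228668: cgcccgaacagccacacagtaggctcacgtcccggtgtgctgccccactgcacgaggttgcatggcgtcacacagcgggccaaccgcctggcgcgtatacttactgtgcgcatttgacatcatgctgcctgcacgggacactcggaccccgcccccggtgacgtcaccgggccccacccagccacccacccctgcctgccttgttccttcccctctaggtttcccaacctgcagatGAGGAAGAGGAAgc
Csf2rb2, chr15:78305722-78305971: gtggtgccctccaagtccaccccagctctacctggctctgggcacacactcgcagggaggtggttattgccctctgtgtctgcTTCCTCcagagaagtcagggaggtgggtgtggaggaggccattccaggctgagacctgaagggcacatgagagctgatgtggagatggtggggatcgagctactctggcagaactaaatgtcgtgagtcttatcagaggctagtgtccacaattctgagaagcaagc
The match in Csf3r lies 86 to 81 bases before the RefSeq start, inside the longer first exon (5′ UTR) of a GENCODE transcript. Csf2ra has 2 adjoining matches between 14 and 3 bases before its start, the last 11 bases of the window lying in the first exon of 1 GENCODE transcript. Csf2rb2 has 1 match, on the opposite strand, 167 to 162 bases before its start. On both strands, 23.3% of 32851 such windows of all RefSeq entries held these letters, so a match is common. The windows of the ligand genes Csf1 and Csf2 held none. Csf2 held 1 match to TTGCNNAA, the C/EBP letters (9.56% of windows), and none of these 5 windows held the CK-1 core GAGATTCC (0.755%), the TATA letters TATAAA (12.4%) or the AP-1 letters TGAGTCA (4.46%). The Csf2 window (chr11:54249900-54250149) lies wholly upstream of the GENCODE start of the gene at base 54249667. It does not cover the bases just before that start, so nothing is read from letters missing there.

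Per transcript length, the macrophage receptor Csf1r and the ligand Csf1 were the most abundant and the ligands Csf2 and Csf3 the least. The median FPKM over the 42 tumours was 90.6 for Csf1r, with a range of 34.8 to 129. Csf1 followed at 51.9, with a range of 35.3 to 65.4, and was below Csf1r in 41 of 42 libraries. Csf3r and Csf2ra were not separated: their medians were 24.96 and 24.4 FPKM, and Csf3r was the higher in 20 of 42 libraries. The second ligand of the Csf1r protein, Il34, had a median of 22.1 FPKM and was below Csf2ra in 28 of 42 libraries. Csf2rb had a median of 12.4 FPKM and exceeded Csf2rb2 (8.08 FPKM) in 42 of 42, by a ratio of 1.15 to 1.78. Csf2 and Csf3 had medians of 0.424 and 0.123 FPKM, Csf2 being higher in 34 of 42 libraries, and Il3 never exceeded a table value of 0.803. Csf1 was the steadiest member, its highest table value being 1.71 times its lowest, against 3.55 for Csf1r, 5.19 for Csf3r, 5.23 for Csf2ra and 8.37 for Csf2rb.

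**Figure D1:**
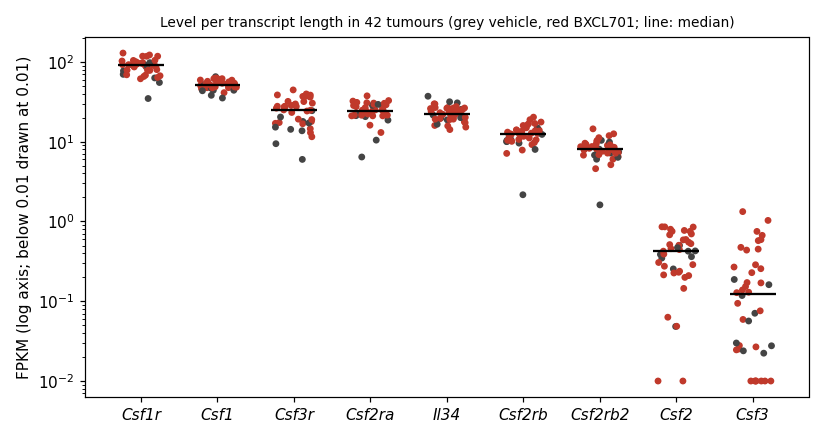
FPKM on a log axis for the 7 members, Csf2rb2 and Il34, 1 point per tumour (42; grey vehicle, red BXCL701) with a line at the median; values below 0.01 are drawn at 0.01. Csf1r and Csf1 lie highest at medians of 90.6 and 51.9, and Csf2 and Csf3 lie under 1.5 in all tumours.

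Csf3 was near the lower end of measurement in most tumours and had its highest group medians at 8 h, overlapping with 0 h on day 14. In the 9 vehicle tumours its table values ran from 0.559 to 4.71, with a median of 1.41. At 0, 1 and 16 h the 24 BXCL701 tumours ran from 0 to 11.9, with a median of 1.67, and 5 of them exceeded the highest vehicle tumour. At 8 h the 9 BXCL701 tumours held 14.2, 14.1 and 18.4 on day 1, 26.3, 11.5 and 40.9 on day 7, and 3.57, 15.5 and 11.3 on day 14. The 0 h tumours held 0.657, 0 and 1.90 on day 7 and 0, 11.9 and 0 on day 14. Thus 8 of the 9 tumours at 8 h exceeded the highest vehicle value, and 8 of the 9 table values of at least 10 in the series were among them. The exception at 0 h was 1 tumour of day 14 at 11.9, whose 2 group mates were at 0. On days 7 and 14 together, 8 h exceeded 0 h by 2.95 ± 0.67 (SE, n = 6 and 6), with 0.132% of all genes past the threshold in that comparison. No member was past it. Csf3 had passed the filter on low values only through the 8 h tumours, which hold 8 of its 9 values of at least 10, so no call on it at 8 h supports a difference. Without the day 14 0 h tumour of 11.9 the difference was 3.57, and with a pseudocount of 5 it was 1.61, and Csf3 was past the threshold in both fits. Over all hours of a day, Csf3 differed from vehicle by 1.16 ± 0.77 on day 1 and 0.66 ± 0.75 on day 7 (limma adjusted p = 0.906 and 0.665), and by 0.45 ± 0.75 on day 14.

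The day 1 tumours do not enter that contrast, and their comparison was added after the values had been seen. The 3 tumours at 8 h (14.1 to 18.4) lay above all 6 at 1 h (0, 6.89 and 6.52) and 16 h (0.61, 1.43 and 7.19), the groups not overlapping. The difference was 2.22 ± 0.82, given without a p because Csf3 was chosen for its values at 8 h, and with keratinocyte, muscle and fat levels as covariates it was 1.38. No member was past the threshold, and among the members other than Csf3 only Csf3r had an unadjusted limma p under 0.05. The share of genes past it was 0.0843%, or 14 genes, against 146 after dropping the 4 tumours with the 2 highest and 2 lowest slopes of gene values on transcript length and 2581 when the 9 libraries were fitted alone, again with no member among them. Csf3r differed in the opposite direction on day 1, by -0.60 ± 0.22 (limma adjusted p = 0.270). The Csf3 difference between 8 h and 0 h was not shown to differ between days: the day 14 difference minus that of day 7 was -1.79 ± 1.34 (limma adjusted p = 0.410, 0.0361% of genes past the threshold, no member among them and 0 members at an unadjusted p under 0.05). At 1 h and at 16 h against 0 h on days 7 and 14, Csf3 differed by 0.54 ± 0.67 and 0.31 ± 0.67 (limma adjusted p = 1.00 for both), with 0.012% and 0.00602% of genes past the threshold, no member among them and 0 and 1 members at an unadjusted p under 0.05.

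Csf2 ran from 0.581 to 6.81 in the vehicle tumours, from 0 to 9.06 at 0, 1 and 16 h of BXCL701, and from 0.571 to 10.3 at 8 h. The highest vehicle tumour was exceeded by 4 of 9 tumours at 8 h and by 6 of 24 at the other hours. Only 2 of 42 libraries reached 10, and no test was made.

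**Figure D2:**
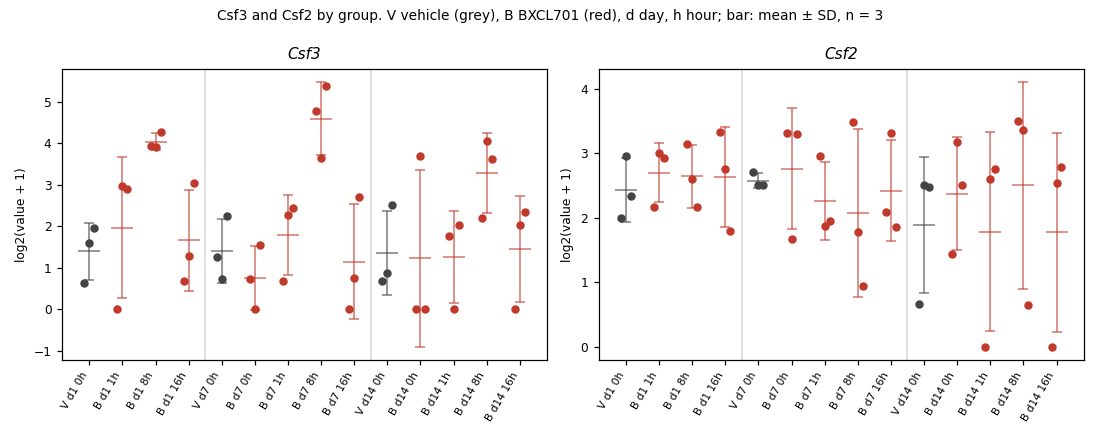
Csf3 (left) and Csf2 (right) in log2(value + 1) for the 14 groups by treatment, day and hour, 1 point per tumour, with mean ± SD (n = 3). Csf3 at 8 h stands at 14.1 to 18.4 in table values on day 1 and 3.57 to 40.9 on days 7 and 14, while vehicle stays at or below 4.71; Csf2 overlaps across all groups.

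Known inducers of colony-stimulating factors were read beside Csf3 at 8 h. None of the 7 tested of 10 listed inducers was past the threshold for 8 h against 0 h (1 had an unadjusted p under 0.05), the list's median difference being -0.13 against -0.04 over all genes. Interleukin 1 beta (Il1b) differed by 0.45 ± 0.27, Tnf by -0.58 ± 0.20 and interleukin 6 (Il6) by -0.17 ± 0.39; Il17a, Il17f and Il23a failed the filter on low values. Among 14 myeloid transcription factors and 22 genes of receptor signalling none was past it either (3 and 2 had an unadjusted p under 0.05). The transcription factors had a median difference of 0.02 with 8 of 14 positive, and the signalling genes a median of -0.10 with 6 of 22 positive. Cebpb, a factor of emergency granulopoiesis, differed by 0.64 ± 0.17, the feedback inhibitor Socs3 by 0.46 ± 0.15 and Stat3 by -0.12 ± 0.10. All 13 tested neutrophil markers had a negative difference at 8 h over days 7 and 14, with a median of -0.55 and none past the threshold. Their mean log2(value + 1) was 6.27 at 0 h and 6.21 at 8 h on day 7, and 7.54 and 6.46 on day 14, so most of that difference lay on day 14. The summed value of that list ran from 1988 to 4746 at 8 h and from 2943 to 9136 at the other hours. Markers of neighbouring tissue had opposite signs in the comparisons of hours. For 8 h against 0 h on days 7 and 14, 0 of 12 keratinocyte, 3 of 14 skeletal muscle and 1 of 10 fibroblast genes had a positive difference, with medians of -1.84, -0.89 and -0.26. For 8 h against 1 h and 16 h on day 1, 11 of 12, 14 of 14 and 8 of 10 had a positive difference, with medians of 2.50, 1.77 and 0.39, and none of these genes was past the threshold in either comparison. With keratinocyte, muscle and fat levels as covariates the Csf3 difference on days 7 and 14 was 3.53. Once group means were removed, Csf3 varied with the keratinocyte (r = 0.62), skeletal muscle (0.59), endothelial (0.59) and fibroblast (0.59) lists over the 42 libraries, and the part of fibroblast and endothelial levels in the result was not tested.

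Csf3r had the largest day 14 difference from vehicle of the 6 members tested. The vehicle tumours held 858, 1110 and 828 on day 1, 1076, 1262 and 917 on day 7, and 591, 416 and 932 on day 14. On day 14 the BXCL701 tumours held 1787, 1719 and 2159 at 0 h, 1616, 1253 and 1887 at 1 h, 1624, 1419 and 1092 at 8 h and 1626, 1419 and 1365 at 16 h, all 12 above the 3 vehicle tumours of that day. On day 7 they held 2138, 2082 and 1410 at 0 h, 1993, 1975 and 1538 at 1 h, 1578, 1410 and 1744 at 8 h and 1431, 2021 and 970 at 16 h, so that 1 tumour, at 970, lay among the day 7 vehicle values. On day 1 the BXCL701 tumours held 807, 1010 and 969 at 1 h, 840, 696 and 806 at 8 h and 2039, 1665 and 1023 at 16 h, and only 2 of 9 exceeded the highest vehicle tumour of the series (1262), against 21 of 24 on days 7 and 14.

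On day 14 Csf3r was higher than in vehicle by 1.34 ± 0.20 with all hours weighted equally, and at single hours by 1.15 to 1.62. At 0 h on days 7 and 14, the hour that vehicle shares, it was higher by 1.20 ± 0.18. The share of all genes past the threshold was 3.29% on day 14 and 0.512% at 0 h, Csf3r among them in both, and since both contrasts chose the members, nothing is read from that. On day 7 the difference was 0.62 ± 0.20 (limma adjusted p = 0.462), and on day 1 it was 0.15 ± 0.21 (limma adjusted p = 0.907). Within BXCL701, day 7 exceeded day 1 at matched hours by 0.63 ± 0.15, just short of the threshold (limma adjusted p = 0.0592). Day 14 differed from day 7 by -0.09 ± 0.13 (limma adjusted p = 0.961). In vehicle, day 14 differed from day 7 by -0.81 ± 0.26 (limma adjusted p = 0.147) and from day 1 by -0.59 ± 0.26 (limma adjusted p = 0.349), neither past the threshold. These comparisons share vehicle libraries and are not independent. Without vehicle day 14 replicate 2 the day 14 difference of Csf3r was 1.07, no longer past the threshold, and without replicate 3 it was 1.65. Without BXCL701 day 1 16 h replicate 1 or BXCL701 day 7 16 h replicate 3, Csf3r was past the threshold for day 7 against day 1.

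**Figure D3:**
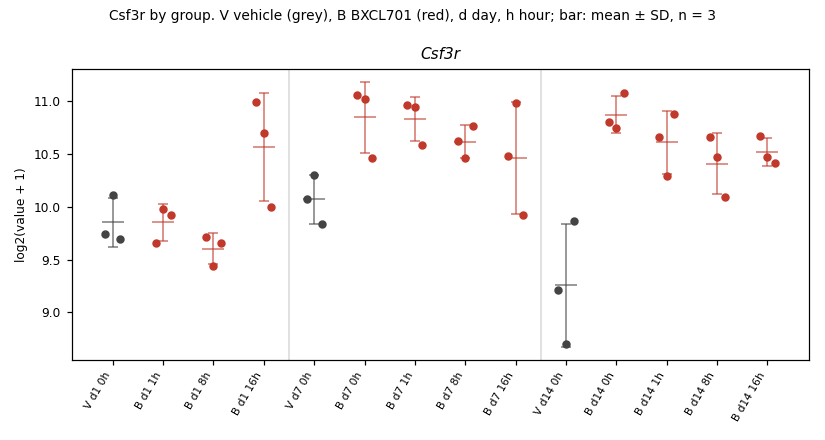
Csf3r in log2(value + 1) by group, 1 point per tumour, with mean ± SD (n = 3; grey vehicle, red BXCL701). All 12 BXCL701 tumours of day 14 lie above the 3 vehicle tumours of that day, and 21 of 24 on days 7 and 14 lie above the highest vehicle tumour.

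Csf3r varied with several immune cell lists across tumours. Over 42 libraries its correlation with the mean of the neutrophil list was r = 0.79, or 0.55 after the group means were removed, as a description of libraries that share treatment and tissue makeup. Within groups the T and NK cell list (r = 0.67) and the dendritic cell list (0.59) stood above the neutrophil list, with 0.49 for monocytes and 0.42 for macrophages, so the correlation was not particular to neutrophil genes. On day 14, 7 of 13 tested neutrophil markers were past the threshold and higher, with a median difference of 1.54 over the list. Of all genes, 3.29% were past it. The list was chosen with earlier results known, so nothing is read from the count. Mmp8, a granule collagenase, was higher by 2.95 ± 0.42, its values being 8.73 to 12.7 in vehicle and 55.8 to 242 in BXCL701, and the chemokine receptor Cxcr2 by 1.37 ± 0.32. Other markers overlapped on that day. Mmp9, with the highest median value of the list, held 643 to 1957 in vehicle and 448 to 2994 (median 1041) in BXCL701. The values of S100a8, S100a9 and Ltf overlapped too. The summed list, 2212 to 3433 in vehicle and 2051 to 9136 in BXCL701 on day 14, overlapped. The mean log2(value + 1) of the list ran from 5.07 to 5.24 in vehicle and from 5.99 to 7.81 in BXCL701 on that day. Some defining markers were near 0: Ly6g was under 1 in 12 libraries, Ngp in 15, Camp in 26, Elane in 25 and Mpo in 11. The genes most like Csf3r over the 42 libraries were Cd101 (r = 0.90), Slfn1 (0.89), Cd300lf (0.87), Nbeal2 (0.86) and Cnr2 (0.85). The correlation of Csf3r with its ligand gene Csf3 was -0.16.

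Csf1 was higher on day 14 by a small amount. Its vehicle tumours of that day held 3165, 2599 and 3253, and the 12 BXCL701 tumours ran from 3267 to 4457 with a median of 3835, so the groups did not overlap at any hour. How common this was among all genes was not counted. The difference was 0.37 ± 0.10, smaller than the 1.34 of Csf3r but with a narrower spread. On days 1 and 7 the groups overlapped (3090 to 4297 in vehicle on day 1, 3215 to 4260 on day 7), with differences of 0.05 ± 0.11 and 0.08 ± 0.10 (limma adjusted p = 0.936 and 0.720). The Csf1 call was kept in 7 of 15 fits that each left out 1 library of the comparison, and without vehicle day 14 replicate 2 the difference was 0.27 and not past the threshold. Il34 held 638, 780 and 699 in vehicle on day 14 and 402 to 605 in the 12 BXCL701 tumours, so its groups did not overlap either, in the opposite direction. Its difference was -0.46 ± 0.16, not past the threshold. The genes most like Csf1 were Sh2b3 (r = 0.74) and Nlrp1a (0.70), lower likeness than for the receptors.

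Csf1r, the macrophage receptor, was not past the threshold in any of the 14 comparisons of the main fit. On day 14 its vehicle tumours held 4401, 3248 and 7171 and the BXCL701 tumours 5026 to 9817 (median 6492), which overlap, with a difference of 0.48 ± 0.20. Without vehicle day 14 replicate 2 that difference was 0.22, and without replicate 3 it was 0.79 and past the threshold. On day 7 the difference was 0.38 ± 0.20 (limma adjusted p = 0.493) and on day 1 it was 0.07 ± 0.20 (limma adjusted p = 0.951). Across tumours it tracked the macrophage list, at r = 0.90 and 0.93 within groups, and the genes most like it were Fes (0.94), Cyth4 (0.92) and Rab3il1 (0.92). On day 14, 3 of 12 macrophage markers were past the threshold and higher, beside 3.29% of all genes past it. They were Mertk by 1.32 ± 0.28, Lyz2 by 1.17 ± 0.22 and Adgre1 by 0.58 ± 0.15. The summed list ran from 53281 to 79948 in vehicle and 65508 to 147064 in BXCL701.

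**Figure D4:**
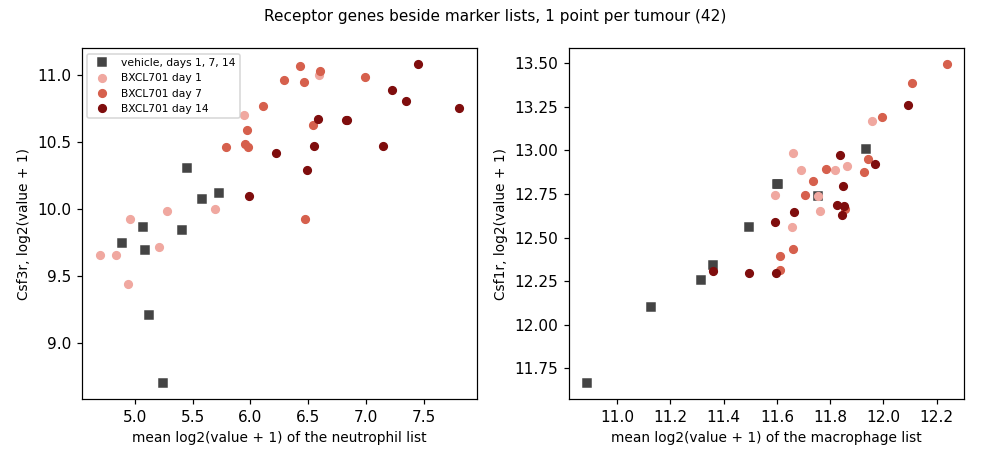
Csf3r against the mean of the neutrophil list (left) and Csf1r against the mean of the macrophage list (right), both axes in log2(value + 1), 1 point per tumour by group (grey squares vehicle, red shades BXCL701 by day). The points follow a rising line, with r = 0.79 for Csf3r and 0.90 for Csf1r, and BXCL701 tumours of days 7 and 14 reach further right on the neutrophil axis.

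Both granulocyte-macrophage receptor chains, Csf2ra and Csf2rb, had a positive difference on day 14. That contrast chose the members, and 3.29% of all genes were past the threshold in it. Nothing is therefore read from which of the chains passed. Csf2ra held 366, 246 and 1015 in vehicle on day 14 and 452 to 1050 (median 810) in BXCL701, with a difference of 0.80 ± 0.24, just outside the threshold; 2 of 3 vehicle tumours were below all others and the third lay within the BXCL701 range. Without vehicle day 14 replicate 2 the Csf2ra difference was 0.37, and without replicate 3 it was 1.39 and past the threshold. Csf2rb held 789, 235 and 1203 in vehicle, and the 12 BXCL701 tumours ran from 700 to 1721, overlapping, with a difference of 1.00 ± 0.26 that was past the threshold. Csf2rb2, its near-copy, differed by 0.71 ± 0.28 (vehicle 607, 169 and 932), short of it. Without vehicle day 14 replicate 2 the Csf2rb difference was 0.32 and not past the threshold, and without replicate 3 it was 1.498. When Csf2rb and Csf2rb2 were summed, which avoids dividing reads between them, the difference was 0.89 ± 0.27 and not past the threshold. Neither Csf2ra nor Csf2rb was past the threshold on day 7 (0.33 ± 0.24 and 0.26 ± 0.26, limma adjusted p = 0.524 and 0.631) or on day 1 (0.17 ± 0.25 and 0.23 ± 0.27, limma adjusted p = 0.912 and 0.906).

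**Figure D5:**
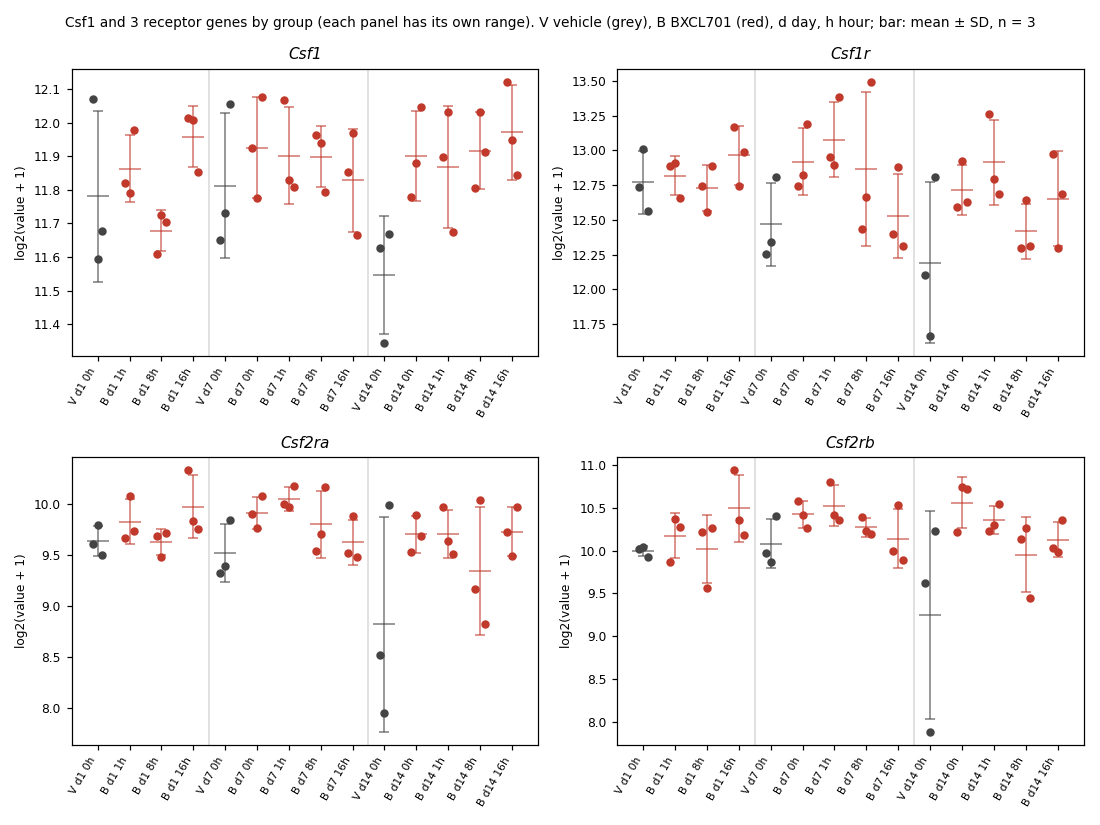
Csf1, Csf1r, Csf2ra and Csf2rb in log2(value + 1) by group, 1 point per tumour with mean ± SD (n = 3); each panel has its own axis range. On day 14 the Csf1 values of BXCL701 lie above vehicle (3267 to 4457 against 2599 to 3253), while the receptor panels overlap and the lowest vehicle tumour stands apart.

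At 0 h, where vehicle and BXCL701 can be compared at the same hour, the differences of the macrophage and granulocyte-macrophage receptor genes were positive and not past the threshold. On day 7 Csf1r held 4895, 5186 and 7173 in vehicle and 6849, 7247 and 9350 in BXCL701, and on day 14 the BXCL701 tumours held 6171, 7772 and 6342, a difference of 0.49 ± 0.18 over both days. Csf2ra held 638, 671 and 918 in vehicle and 956, 868 and 1079 in BXCL701 on day 7, and 737, 951 and 824 in BXCL701 on day 14, a difference of 0.64 ± 0.22. Csf2rb held 1005, 932 and 1358 in vehicle and 1537, 1371 and 1232 in BXCL701 on day 7, and 1189, 1721 and 1685 in BXCL701 on day 14, a difference of 0.83 ± 0.24. In each of these genes at least 1 vehicle tumour lay within the BXCL701 range on day 7. Without vehicle day 14 replicate 3 each was past the threshold, at 0.64 for Csf1r, 0.93 for Csf2ra and 1.08 for Csf2rb. Without replicate 2 the differences were 0.35, 0.42 and 0.49 and not past it. For the ligands the difference was 0.23 ± 0.09 for Csf1 and -0.39 ± 0.67 for Csf3, neither past the threshold.

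All 4 receptor genes had negative differences at 8 h and 16 h against 0 h. From 0 h to 8 h on days 7 and 14 the difference was -0.35 ± 0.18 for Csf3r, -0.38 ± 0.24 for Csf2rb, -0.24 ± 0.22 for Csf2ra and -0.18 ± 0.18 for Csf1r. From 0 h to 16 h it was -0.37 ± 0.18 for Csf3r, -0.36 ± 0.24 for Csf2rb, -0.13 ± 0.22 for Csf2ra and -0.23 ± 0.18 for Csf1r (limma adjusted p = 1.00 for each), and none was past the threshold. In vehicle, day 14 differed from day 1 by -0.82 ± 0.31 for Csf2ra, -0.75 ± 0.34 for Csf2rb and -0.58 ± 0.25 for Csf1r, without passing the threshold (limma adjusted p = 0.276, 0.369 and 0.352).

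Across the 42 tumours the pair correlations were 0.95 for Csf2rb and Csf2rb2, 0.86 for Csf1r and Csf2ra, 0.82 for Csf2ra and Csf2rb and 0.74 for Csf3r and Csf2rb, 0.46 for Csf3r and Csf1r and 0.41 for Csf1 and its receptor Csf1r. Csf1 had correlations of 0.58 with Csf2rb, 0.55 with Csf3r and 0.52 with Csf2ra, so receptor pairs were not all above pairs with a ligand gene. These describe libraries that share tumour makeup. The genes most like Csf2ra were Nckap1l (0.93), Arhgap4 (0.92) and Icam1 (0.92), and those most like Csf2rb, after Csf2rb2, were Fgr (0.93) and Lcp1 (0.89). Csf3 was most like Selp (0.67) and Csf2 most like Mmp12 (0.70).

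Counted together on day 14, 3 of the 6 members tested (Csf3r, Csf1 and Csf2rb) were past the threshold and all 6 had a positive difference, with a median of 0.64 against -0.01 over all genes and 3.29% of genes past the threshold. The contrast had been used to choose the members, so nothing is read from this count. Without vehicle day 14 replicate 2 none of the 6 was past the threshold, and without replicate 3 there were 5. Fitted on the 15 libraries of day 14 alone, 0 of 6 passed. At 0 h the count of 1 became 4 without vehicle day 14 replicate 3. In the comparisons not used for the choice, no member was past it in limma: 0 of 6 on day 1 (0% of genes; 0 members at an unadjusted p under 0.05), 0 of 6 on day 7 (0.00602%; 1 at an unadjusted p under 0.05), and 0 of 6 for vehicle day 7 against day 1 (0%), vehicle day 14 against day 1 (0.0602%), vehicle day 14 against day 7 (0%), BXCL701 day 14 against day 7 (0.012%) and BXCL701 day 7 against day 1 (0.12%). At an unadjusted p under 0.05 these last 5 comparisons held 0, 4, 3, 0 and 1 members. Without vehicle day 14 replicate 3, 4 members were past the threshold, all lower, for vehicle day 14 against day 1 and 3 against day 7.

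Downstream of the receptors, 5 of 22 genes of receptor signalling and feedback were past the threshold on day 14 and higher, beside 3.29% of all genes past it. Among them were the kinases Syk (0.83 ± 0.22) and Tyk2 (0.73 ± 0.20), the phosphoinositide kinase subunit Pik3cd (1.02 ± 0.26) and the transcription factor Stat3 (0.42 ± 0.12), Stat3 being the main mediator of signals from the Csf3r protein. All 22 had a positive difference, with a median of 0.41, and Socs3 differed by 0.43 ± 0.17. The mean log2(value + 1) of the 22 was 10.07 in vehicle on day 14 (9.67 to 10.47), below the 10.48 and 10.47 of vehicle on days 1 and 7. In BXCL701 on day 14 it was 10.59, 10.49, 10.43 and 10.56 at 0, 1, 8 and 16 h, near the earlier vehicle levels. Of 14 myeloid transcription factors, 1 was past the threshold, Irf8, a factor of monocyte and dendritic cell fate, at 0.87 ± 0.24. Spi1, which encodes PU.1, differed by 0.32 ± 0.23. None of the 7 tested of 10 related ligands and receptors, nor of 7 tested inducers, was past it, although 3 of the former and 0 of the latter reached an unadjusted limma p under 0.05. These lists were chosen with earlier results of these data known, so nothing is read from these counts. Whether they depend on single vehicle tumours was not tested.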

How the data were processed

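RNA from 42 tumours was sequenced. The GRCm38 build, Bowtie 0.12.9 and Trimmomatic 0.36 appear in the submitters' processing notes, without their settings; the gene counter, annotation and scaling are among the steps not given in the sources used here. A gene table was deposited by the authors, whose signal values are not whole numbers and were taken as estimated reads scaled per library, so the read depth is unknown and no count test was used, although its file is named as counts. They also deposited log2 FPKM values of the same libraries, used for levels per length and as an alternative; columns of no listed sample numbered 0.

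The filter on low values asked for 10 or more in 3 or more libraries and left 16613 of 47729 genes. The scale was log2(value + 1), so differences of low genes are understated. One limma model (3.58.1, R 4.3.3) with 14 group coefficients and 28 residual degrees of freedom was fitted, with an intensity trend and robust moderation, and p-values were Benjamini-Hochberg adjusted over all genes kept in each of 14 comparisons, at a threshold of 0.05. Hours were weighted equally. One of the 14, the day 1 comparison of hours, was added after the values were seen. The procedure was tested on simulated data. Groups follow the labels; replicate numbers were given in record order and so pair no samples.

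The members and the 17 gene lists were chosen with earlier results of these data known. Named genes were the members, Csf2rb2, listed genes past the threshold (up to 4 per list and direction, plus 8 always named: Il34, Il1b, Tnf, Il6, Il17a, Stat3, Socs3 and Cebpb), up to 5 genes most correlated with each member, and 2 to 4 genes of a cell type list. Genes named outside that rule (Spi1, the defining neutrophil markers near 0, the overlapping neutrophil markers Mmp9, S100a8, S100a9 and Ltf, and the tissue check genes Krt8, Msln and Epcam) were chosen after their values were seen. One gene of the receptor signalling list is not reported here. Alternatives were median-of-ratios factors, no filter, a pseudocount of 5, the FPKM table (pseudocount 0.1), the comparison's libraries alone, skin, muscle and fat levels or a transcript-length index as covariates, no libraries of extreme length index, Csf2rb and Csf2rb2 summed, and leaving out each library.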

Additional observations from a re-analysis of the deposited data

How the results depend on the processing

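The number of members past the threshold on day 14 was 3 and became 0 with the 15 libraries of the comparison alone, where the number of genes past the threshold fell from 547 to 1, and 5 when the fit included the transcript-length index, where 2968 genes passed. Without the 4 libraries of extreme length index 1018 genes passed. For 0 h it was 1 and became 0 with the libraries alone and 3 with the length index. For 8 h against 0 h it was 0 and became 1 (Csf3) with a pseudocount of 5 and 1 (Csf3) with neighbouring tissue as covariates, and for BXCL701 day 7 against day 1 it was 0 and became 1 with the libraries alone and 1 with the length index. Leaving out 1 library at a time, the count ran from 0 to 5 on day 14, 1 to 4 at 0 h, 0 to 1 for 8 h against 0 h, 0 to 1 for BXCL701 day 7 against day 1, 0 to 4 for vehicle day 14 against day 1 and 0 to 3 for vehicle day 14 against day 7. Of all genes, those past the threshold at 0 h numbered 85, and 1 with the libraries alone, 613 with the length index, 142 in the FPKM table, 33 with no filter and 3 without the extreme libraries. For 8 h against 0 h they numbered 22, and 0, 76, 12, 28 and 12 under those settings; for day 1, 8 h against 1 h and 16 h, 14, and 2581, 37, 25, 13 and 146; for BXCL701 day 7 against day 1, 20, and 500, 594, 20, 11 and 20; for vehicle day 14 against day 1, 10, and 0, 301, 1, 29 and 2, with 16 under neighbouring tissue as covariates. With 6 such genes or fewer, the counts ran from 0 to 7 for the day 14 minus day 7 difference, 0 to 3 at 1 h, 1 to 2 at 16 h, 1 to 5 for BXCL701 day 14 against day 7, 0 to 2 for day 1, 0 to 11 for day 7 and 0 to 7 for vehicle day 7 against day 1. For vehicle day 14 against day 7 the count went from 0 to 18 with the length index and to 18 with no filter. Except where a setting changed the libraries fitted, the cause was not tested. The difference of Csf1r between vehicle days 7 and 1 turned from -0.30 to 0.0574 with the length index; that one included, differences changed sign in 17 of 283 alternative fits for Csf1r, 25 for Csf3, 29 for Csf1, 17 for Csf2ra, 1 for Csf3r and, of 297, 3 for Csf2rb, the others being smaller than their standard error. No paired analysis was possible because each library came from a separate animal. The read depth is unknown, which limits Csf2 and Csf3 most, and 3 vehicle tumours a day bound the precision.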
